A study of Mus musculus castaneus and Mus musculus domesticus and Mus musculus with 11 samples.

Results

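The genes described here are the nuclear-encoded subunits of the respiratory chain and ATP synthase, measured in stem cell-derived motor neurons of 3 mouse lines. They were chosen by gene symbol among the 27071 Ensembl genes of the deposited count matrix: symbols beginning with Ndufa, Ndufb, Ndufc, Ndufs or Ndufv and a number, the 4 Sdh subunit genes, and symbols beginning with Uqcr, with Cox4 to Cox8 followed by a, b or c, or with Atp5, with assembly factors and pseudogenes left out. The rule found 76 protein-coding genes, of which 34 encode subunits of complex I, 4 of complex II, 8 of complex III, 16 of complex IV and 14 of complex V. A filter on low counts kept 72 of them for testing. Another 7 protein-coding genes that fit the rule by symbol, Atp5g1, Atp5l, Atp5s, Cox5b, Cox7b2, Ndufs3 and a second gene ID named Atp5o, have no row in the matrix and were not analysed here.

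The series models how neurite growth varies between mouse lines, with 3 libraries of polyadenylated RNA per line. The hybrid is the line that the labels call 129CAS, CAST is the strain CAST/EiJ (Mus musculus castaneus), and 129 is the strain 129S6/SvEv (Mus musculus domesticus). All 3 lines were labelled as motor neurons, and no treatment, allele, age or sorting step is named in the labels used here. Separate cultures are not stated for the libraries of a line. P-values thus rest on the spread among these libraries alone, which may be technical.

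The respiratory chain passes electrons from NADH and succinate to oxygen and pumps protons across the inner mitochondrial membrane. Complex I takes electrons from NADH, complex II takes them from succinate, complex III hands them to cytochrome c and complex IV hands them to oxygen, while complex V, the ATP synthase, uses the proton gradient to make ATP. Most subunits are encoded in the nucleus and imported, and neurons depend heavily on this route to ATP for their ion pumps and axonal transport.

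Total counts ran from 7763077 in hybrid 2 to 18167577 in 129 1. Expression levels are given as CPM, counts scaled to a common library size, after TMM scaling, a correction that sets the bulk of genes level between libraries. Summed over the 8 markers of spinal motor neurons, levels were 448 to 1360 CPM in the hybrid, 566 to 3230 CPM in CAST and 359 to 1420 CPM in 129. Prph was the largest contributor in every library, with 3000 CPM in CAST 1, 1230 CPM in hybrid 2 and 240 CPM in 129 1. The median log2 fold change of the 8 was -0.75 for the hybrid against 129, with 1 above 0. It was -0.59 for the hybrid against CAST and -0.51 for CAST against 129, with 2 and 3 above 0. In each comparison 0 of these 8 passed an edgeR adjusted p of 0.05 (7.02%, 6.0% and 0.917% of all genes). Among the defining markers, Mnx1 stayed between 0.495 and 4.88 CPM and Chat between 5.52 and 28.4 CPM over the 9 libraries. The 7 markers of fibroblasts and mesenchyme summed to 891 to 18900 CPM in the hybrid, 437 to 4220 CPM in CAST and 3630 to 17900 CPM in 129. All 7 were higher in the hybrid than in CAST (median log2 fold change 2.53) and lower in CAST than in 129 (-2.61). At an unadjusted edgeR p under 0.05 there were 3 and 4 (15.8% and 14.6% of all genes), and 0 for the hybrid against 129 (median -0.36, 22.2%). In these comparisons 0 of the 7 passed an edgeR adjusted p of 0.05, where 6.0%, 0.917% and 7.02% of all genes did. Summed over 8 markers of neurons, levels were 2190 to 5230 CPM in the hybrid, 2970 to 7290 CPM in CAST and 2070 to 5440 CPM in 129, with Stmn2 and Tubb3 as the largest contributors in hybrid 2 and CAST 1. In bulk samples, fewer cells of a type and less RNA per cell cannot be told apart.

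A pair of libraries stood apart in the respiratory chain genes, hybrid 2 and CAST 1. Each member's log2 CPM was set against the mean of the 3 129 libraries, and the median over the 72 tested members was 0.06 in hybrid 1, 2.37 in hybrid 2 and 1.0 in hybrid 3. In CAST the medians were 2.57 in CAST 1, 0.28 in CAST 2 and 0.10 in CAST 3, and in the 129 libraries themselves they lay between -0.05 and 0.08. On the linear scale, the typical respiratory chain gene was thus 5.17-fold above the 129 mean in hybrid 2 and 5.96-fold above it in CAST 1, but only 1.04-fold in hybrid 1 and 1.07-fold in CAST 3. The median over all tested genes lay between -0.02 and 0.05 in every library.

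Cell type markers also differed in these libraries. The median log2 difference from the 129 mean over the 8 neuron markers was -1.27 in hybrid 2 and -0.11 in CAST 1, and the markers did not move as one. Map2, a neuronal microtubule protein, was at 509, 74.2 and 381 CPM in the hybrid, 85.4, 716 and 659 CPM in CAST and 611, 792 and 1310 CPM in 129, lowest in hybrid 2 and CAST 1. Tubb3, the neuronal tubulin, was at 403, 1520 and 1500 CPM in the hybrid, 3230, 1060 and 550 CPM in CAST and 330, 575 and 960 CPM in 129, highest in CAST 1 and hybrid 2. CAST 1 also had the lowest summed markers of all 9 libraries for fibroblasts (437 CPM), neural progenitors (43.3 CPM) and cycling cells (46.4 CPM), where hybrid 2 had 3430, 89.4 and 91.0 CPM. The tested markers had median transcripts of 3649.5 bases for neurons, 5348 for fibroblasts, 2699.5 for neural progenitors and 5221 for cycling cells. Over all tested genes, the difference from 129 fell with transcript length in both libraries, by 1.12 log2 units per doubling in hybrid 2 and 1.0 in CAST 1. The part of that trend in the marker levels was not tested, nor was the part of these markers in the members' shift.

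The shift ran through nearly all members. Hybrid 2 was the highest of its line in 71 of 72 members and CAST 1 in 70 of 72, and hybrid 3 lay above hybrid 1 in 72 of 72. The highest of all 9 libraries was CAST 1 for 40 members and hybrid 2 for 31. The exception was Ndufs1, which encodes the largest core subunit of complex I and carries iron-sulfur clusters. The members took 0.66%, 2.77% and 1.40% of all counts in hybrid 1, 2 and 3, 2.93%, 0.873% and 0.727% in CAST 1, 2 and 3, and 0.634%, 0.625% and 0.714% in 129 1, 2 and 3.

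**Figure D1:**
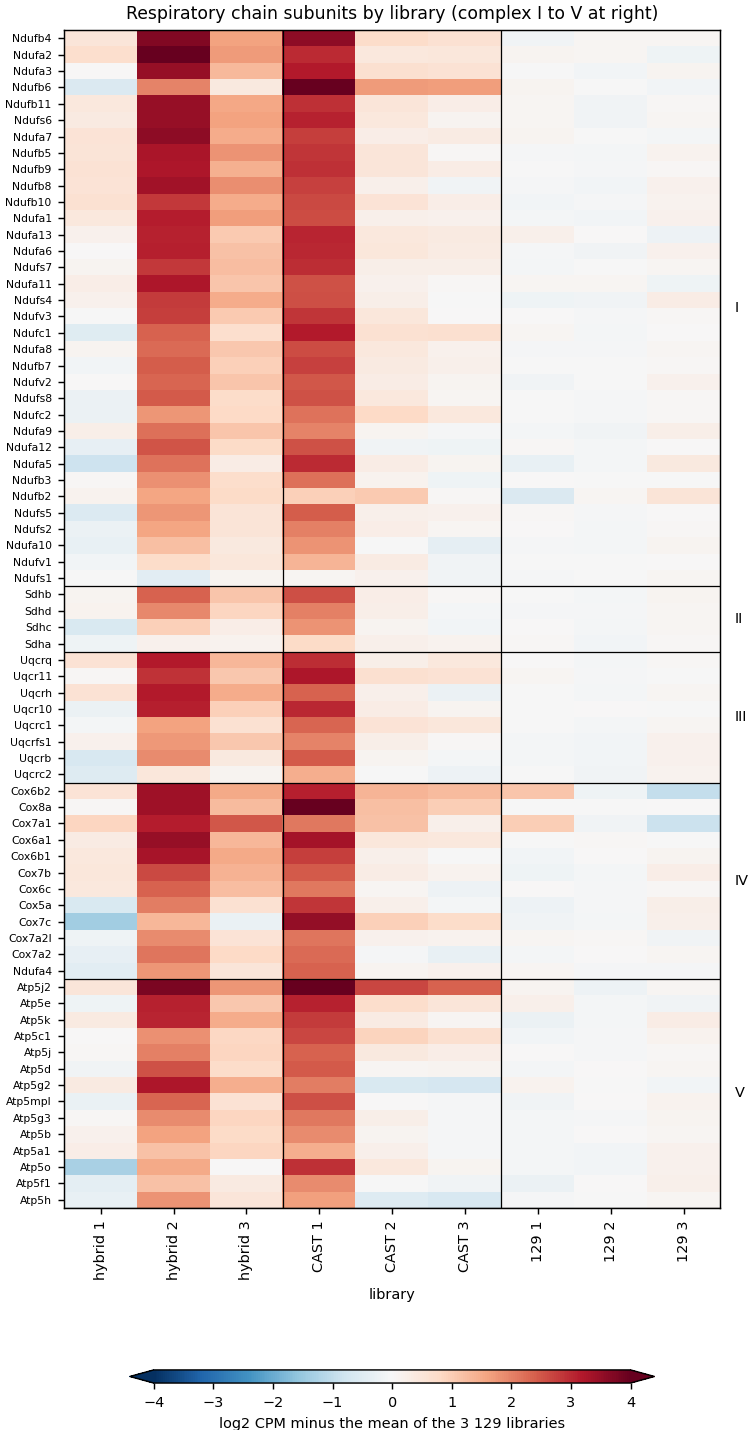
Heat map of the 72 tested members (rows, grouped by complex) in 9 libraries (columns), coloured by log2 CPM minus the mean of the 3 129 libraries; the scale ends at 4 and -4, and values beyond take the end colours. Hybrid 2 and CAST 1 are dark through most rows, hybrid 3 is paler, and Atp5j2 and Ndufb6 stand out in CAST 2 and CAST 3.

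The first comparison asked how the members differ between the hybrid and 129. The median log2 fold change over the 72 members was 1.45, against 0.02 over all 14839 genes tested, and 71 of 72 members lay above 0, against 50.7% of all genes. Of the 72, 0 passed an edgeR adjusted p of 0.05, while 7.02% of all genes did. At an unadjusted p under 0.05 there were 23 members, against 22.2% of all genes, and DESeq2 called 10 (Atp5j2, Cox7a1, Ndufa1, Ndufa2, Ndufa7, Ndufb11, Ndufb4, Ndufb5, Ndufb8 and Uqcrh), where it called 14.2% of all genes. In 29 members every hybrid library lay above every 129 library, against 20.5% of all genes, and in 0 every hybrid library lay below, against 16.9%.

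CAST against 129 had a similar median, 1.44, against 0.06 over all genes, and 72 of 72 members lay above 0, against 52.4% of all genes. Again 0 members passed the edgeR adjusted p, in a comparison where 0.917% of all genes did. There were 9 members at an unadjusted p under 0.05, against 14.6% of all genes, and DESeq2 called Atp5j2, Cox8a and Ndufb6, where it called 6.33% of all genes. Every CAST library lay above every 129 library in 35 members, against 15.2% of all genes, and below in 0, against 13.5%.

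Between the hybrid and CAST the members were close to level, with a median log2 fold change of 0.06, against -0.08 over all genes, and 41 of 72 above 0, against 45.4%. Here too 0 members passed the edgeR adjusted p, against 6.0% of all genes. Only 2 members, Cox7c and Ndufb6, had an unadjusted p under 0.05, against 15.8% of all genes, and DESeq2 called 0, where it called 10.8% of all genes. In 0 members did the libraries of the hybrid and CAST not overlap, while 10.7% of all genes were higher and 8.57% lower without overlap. The test for any difference among the 3 lines called 0 members (8.03% of all genes), with 4 at an unadjusted p under 0.05 (21.1% of all genes) and 3 called by DESeq2, Atp5j2, Cox7c and Ndufb6 (16.9% of all genes). The comparisons share libraries, so they are not independent.

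These medians moved when hybrid 2 and CAST 1 were left out: both lines lay closer to 129, and the hybrid's difference from CAST was larger. Without both libraries the median log2 fold change of the members was 0.59 for the hybrid against 129, 0.39 for the hybrid against CAST and 0.16 for CAST against 129. Without CAST 1 alone the median was 1.20 for the hybrid against CAST and 0.18 for CAST against 129, and without hybrid 2 alone it was 0.59 for the hybrid against 129 and -0.75 for the hybrid against CAST, so that the sign of the hybrid's difference from CAST changed with the library left out. The members called without both libraries were Ndufa2 for the hybrid against 129 (edgeR adjusted p = 0.0499, where 9.73% of all genes were called), Atp5g2 and Ndufb6 for the hybrid against CAST (6.24%), Atp5j2 for CAST against 129 (1.52%), and Atp5j2 and Ndufb6 for any difference (9.82%). Without CAST 1 alone the members called were Ndufb10, Ndufb5 and Ndufb8 for the hybrid against 129 (11.2%), and without hybrid 2 alone Atp5j2 and Ndufb6 for any difference (7.1%).

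**Figure D2:**
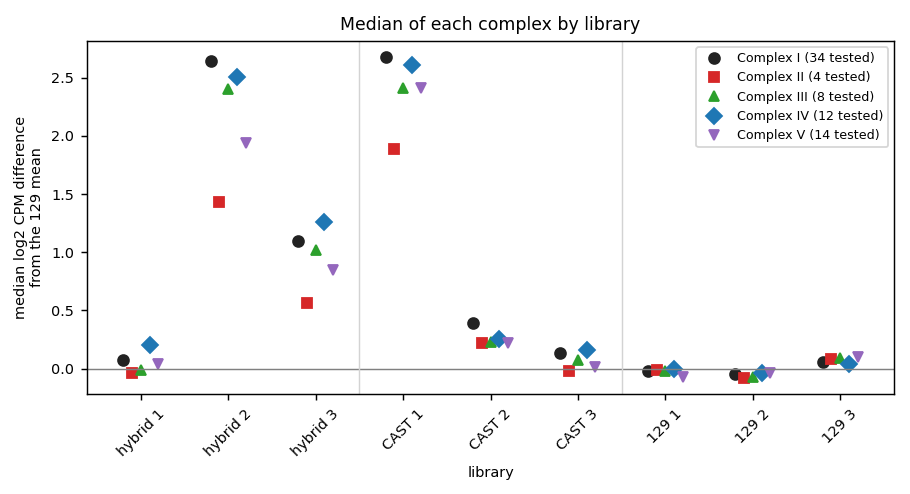
Median log2 CPM difference from the 129 mean (vertical axis) for the tested members of each complex in each library (horizontal axis); symbols mark complex I to V. All 5 complexes lie above 0 in hybrid 2 and CAST 1, with complex II lowest in both, at 1.43 and 1.89.

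Complex I, the entry point for NADH, had 34 tested members. The 28 accessory subunits had medians of 0.15, 2.81 and 1.13 log2 units above the 129 mean in hybrid 1, 2 and 3, and 2.74, 0.41 and 0.17 in CAST 1, 2 and 3. The 6 core subunits, which hold the flavin and the iron-sulfur clusters, had lower medians in hybrid 2 (1.96), hybrid 3 (0.63) and CAST 1 (2.25). The principal transcripts of the core subunits had a median length of 1642 bases, against 747.5 bases for the accessory subunits. For the hybrid against 129 the median log2 fold change was 1.11 in core and 1.88 in accessory subunits. With an offset for transcript length, described below, these medians were 0.03 and 0.26. For CAST against 129 they were 1.23 and 1.61, and 0.36 and 0.38 with the offset. The part of length in the difference between core and accessory subunits was not tested.

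Ndufa2, an accessory subunit of the arm that faces the matrix, was at 38.5, 381 and 78.5 CPM in the hybrid, at 189, 32.2 and 32.8 CPM in CAST and at 25.8, 25.4 and 21.4 CPM in 129. All hybrid and all CAST libraries lay above all 129 libraries. Its log2 fold change was 2.78 ± 0.96 (SE) for the hybrid against 129 (edgeR adjusted p = 0.137; 1.28 and adjusted p = 0.0499 without hybrid 2 and CAST 1).

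Ndufb4, an accessory subunit of the membrane arm, was at 49.1, 465 and 108 CPM in the hybrid, 426, 59.5 and 53.9 CPM in CAST and 32.0, 37.3 and 37.2 CPM in 129. Here as well the 129 libraries were the lowest 3. Its log2 fold change was 2.55 ± 1.0 for the hybrid against 129 (edgeR adjusted p = 0.181) and 2.34 ± 0.99 for CAST against 129 (adjusted p = 0.324). Of its transcript's 50-base stretches, 37.0% also occur in transcripts of other genes, among them Ndufb4c, so its counts are uncertain where the authors' counting could split or drop such reads.

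Ndufs1 behaved otherwise. It was at 124, 94.6 and 134 CPM in the hybrid, 132, 141 and 114 CPM in CAST and 121, 123 and 133 CPM in 129, and hybrid 2 was the lowest of the 9. Its fold changes on the log2 scale were -0.10 ± 0.30 for the hybrid against 129 and 0.04 ± 0.30 for CAST against 129 (edgeR adjusted p = 0.854 and 0.960). Ndufa1 and Ndufb9, which with Ndufa2 had the highest levels per kb of exon in complex I (168, 170 and 160 CPM per kb, averaged over 9 libraries), had values more like Ndufa2. Their log2 fold changes for the hybrid against 129 were 2.14 ± 0.82 for Ndufa1, the X-linked membrane arm subunit, and 2.18 ± 0.86 for Ndufb9 (edgeR adjusted p = 0.174 and 0.183). Ndufb8, another membrane arm subunit, had 2.35 ± 0.89 (edgeR adjusted p = 0.168), and Ndufc1 had 1.30 ± 0.84 for the hybrid against 129 and -0.70 ± 0.83 for the hybrid against CAST (adjusted p = 0.365 and 0.808).

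Complex II is the enzyme that also serves the tricarboxylic acid cycle, and its 4 subunits showed the smallest median of the 5 complexes for the hybrid against 129, 0.74, and for CAST against 129, 0.94. Its median principal transcript was the longest, 2065.5 bases, against 614 to 955 bases in the other complexes. The low rank was not kept with an offset for transcript length, described below. For the hybrid against 129 the median was then 0.21, against 0.13, -0.08, 0.13 and -0.20 in complexes I, III, IV and V. For CAST against 129 it was 0.36, against 0.36, 0.22, 0.17 and 0.29. Sdha, the flavoprotein that oxidises succinate, was at 180, 226 and 224 CPM in the hybrid, 344, 234 and 221 CPM in CAST and 209, 188 and 210 CPM in 129. The CAST libraries lay above the 129 libraries by a small margin, and the hybrid overlapped both lines. Its log2 fold change was 0.40 ± 0.34 for CAST against 129 (edgeR adjusted p = 0.564) and 0.05 ± 0.34 for the hybrid against 129 (adjusted p = 0.928).

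Sdhb, the iron-sulfur subunit that takes the electrons from Sdha, was at 92.8, 449 and 188 CPM in the hybrid, 515, 105 and 89.2 CPM in CAST and 85.6, 81.8 and 93.4 CPM in 129. Hybrid 1 and CAST 3 lay within the range of 129, and the other hybrid and CAST libraries lay above it. Log2 fold changes were 1.48 ± 0.76 for the hybrid and 1.44 ± 0.76 for CAST against 129 (edgeR adjusted p = 0.279 and 0.399). Between the membrane anchors, Sdhd had 1.16 ± 0.63 and Sdhc 0.32 ± 0.57 for the hybrid against 129 (adjusted p = 0.297 and 0.731). The principal transcripts of Sdhd and Sdhb have 1231 and 1142 bases, those of Sdhc and Sdha 3171 and 2900.

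Complex III had 8 members. Uqcrh, the hinge protein that sits at the docking site of cytochrome c, was at 134, 814 and 251 CPM in the hybrid, 460, 103 and 77.1 CPM in CAST and 89.1, 85.6 and 96.0 CPM in 129. All hybrid libraries lay above the 129 libraries, while CAST 3 lay below them. It had a log2 fold change of 2.15 ± 0.83 for the hybrid against 129 (edgeR adjusted p = 0.175).

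The small accessory subunits Uqcr10 and Uqcr11, with the shortest principal transcripts among the named members of the complex (434 and 445 bases), had log2 fold changes of 1.79 ± 0.96 and 2.05 ± 0.88 for CAST against 129 (edgeR adjusted p = 0.405 and 0.329), and Uqcrq had 2.11 ± 0.87 for the hybrid against 129 (adjusted p = 0.198). Fold changes of the large core proteins were smaller. Uqcrc1 was at 149, 478 and 242 CPM in the hybrid, 791, 228 and 215 CPM in CAST and 155, 150 and 168 CPM in 129, with 0.88 ± 0.61 for the hybrid and 1.38 ± 0.62 for CAST against 129 (adjusted p = 0.396 and 0.346). Uqcrc2 was at 106, 207 and 162 CPM in the hybrid, 412, 150 and 131 CPM in CAST and 150, 138 and 169 CPM in 129, with 0.06 ± 0.49 for the hybrid and 0.60 ± 0.49 for CAST against 129 (adjusted p = 0.948 and 0.553).

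Complex IV, cytochrome c oxidase, held the highest levels per kb of exon of all members. Averaged over the 9 libraries, Cox6b1 stood at 632, Cox6a1 at 557 and Cox8a at 474 CPM per kb. The complex V subunits Atp5b at 350 and Atp5a1 at 299 followed. The order depends on the length used: per kb of principal transcript, Atp5b came first at 775, ahead of Cox6b1 at 724, Cox6a1 at 685 and Cox8a at 534. These averages include hybrid 2 and CAST 1 and carry their shift.

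Cox6b1, a subunit on the side of the complex that meets cytochrome c, was at 208, 1530 and 443 CPM in the hybrid, 1050, 179 and 152 CPM in CAST and 142, 156 and 166 CPM in 129. The hybrid libraries all lay above 129 and CAST overlapped it. Its log2 fold change was 2.24 ± 0.92 for the hybrid against 129 (edgeR adjusted p = 0.199). For Cox6a1, the widely expressed form of subunit VIa, it was 2.31 ± 0.99 for the hybrid and 2.08 ± 0.98 for CAST against 129 (adjusted p = 0.212 and 0.365), and for Cox6c 1.56 ± 0.70 and 1.05 ± 0.69 (adjusted p = 0.225 and 0.473).

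Several complex IV subunits exist as isoforms with restricted tissues, and these were near the limit of detection in most cases. Cox6a2, the heart and skeletal muscle form, had between 0 and 19 counts a library, Cox8b, found in muscle and brown fat, between 0 and 2, and Cox8c, known from testis, between 0 and 1. Ndufa4l2, a hypoxia-responsive relative of the complex IV subunit Ndufa4, had 41 counts in hybrid 2 against 2 to 7 elsewhere. These 4 members did not pass the filter and were not tested. A count of 3, the limit that 0 counts allow, corresponds to between 0.165 and 0.386 CPM in these libraries.

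The muscle form Cox7a1 passed the filter at low levels, with 1.70, 8.24 and 5.17 CPM in the hybrid, 4.03, 2.08 and 1.08 CPM in CAST and 1.83, 0.854 and 0.517 CPM in 129. Hybrid 1 lay within the range of 129. It had the lowest adjusted p of any member for the hybrid against 129, with a log2 fold change of 2.21 ± 0.76 (edgeR adjusted p = 0.135). Its widely expressed counterpart Cox7a2 had 1.21 ± 0.78 (adjusted p = 0.363) and Cox7a2l, which takes part in joining complexes III and IV, 1.01 ± 0.67 (adjusted p = 0.379). Muscle markers summed to 79.5, 235 and 11.5 CPM in the hybrid, 25.3, 15.1 and 14.0 CPM in CAST and 230, 224 and 38.6 CPM in 129 over 8 genes. Des, which encodes desmin, was the largest contributor in every hybrid and every 129 library. Its level was higher in hybrid 2 than in any other library, including every 129 library. It was at 76.4 CPM in hybrid 1 and 8.32 CPM in hybrid 3, against 191, 210 and 19.4 CPM in 129. Myh3, the embryonic muscle myosin, was at 1.70, 1.68 and 1.19 CPM in the hybrid, 6.40, 4.38 and 6.88 CPM in CAST and 18.4, 6.10 and 7.53 CPM in 129. It was called lower in the hybrid against 129, by a log2 fold change of -2.81 (edgeR adjusted p = 0.0106, where 7.02% of all genes were called). Myh3 was the only 1 of the 6 tested muscle markers called in that comparison. The part of these markers in the level of Cox7a1 was not tested.

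Cox6b2, the testis form of Cox6b1, was not at the limit of detection. It was at 26.5, 189 and 51.9 CPM in the hybrid, 155, 45.9 and 43.2 CPM in CAST and 39.2, 16.2 and 9.31 CPM in 129, so the 129 libraries varied more than for most members. Log2 fold changes were 2.04 ± 0.86 for the hybrid and 1.91 ± 0.86 for CAST against 129 (edgeR adjusted p = 0.206 and 0.345). The other widely expressed members of the isoform list, Cox7b and Ndufa4, had 1.75 ± 0.74 and 0.89 ± 0.72 for the hybrid against 129 (adjusted p = 0.208 and 0.452).

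Complex V members were split between the F1 head, the peripheral stalk and the membrane part. Atp5b, the catalytic beta subunit of the head, had the highest CPM of all members, with 1030, 2770 and 1570 CPM in the hybrid, 3380, 979 and 885 CPM in CAST and 863, 920 and 967 CPM in 129. The hybrid lay above 129 in every library, with hybrid 1 closest, and CAST overlapped 129. Its log2 fold change was 0.96 ± 0.65 for the hybrid and 0.93 ± 0.65 for CAST against 129 (edgeR adjusted p = 0.382 and 0.498). The alpha subunit Atp5a1 had 0.81 ± 0.53 and 0.70 ± 0.53 (adjusted p = 0.369 and 0.524), and the small epsilon subunit Atp5e 1.92 ± 0.90 and 1.92 ± 0.90 (adjusted p = 0.244 and 0.363).

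In the membrane part, Atp5g2 and Atp5g3 encode the same mature c-ring protein from separate genes. Atp5g2 was at 42.6, 309 and 90.1 CPM in the hybrid, 135, 21.5 and 20.8 CPM in CAST and 36.2, 32.6 and 30.5 CPM in 129, so CAST 2 and CAST 3 lay below all 129 and all hybrid libraries while CAST 1 lay among the higher values. The log2 fold change of Atp5g2 was 1.32 ± 0.87 for the hybrid against CAST (edgeR adjusted p = 0.575; 1.69 and adjusted p = 0.0425 without hybrid 2 and CAST 1). For Atp5g3 it was 0.02 ± 0.65 (adjusted p = 0.995). Reads of Atp5g2 are hard to place, since 87.4% of the 50-base stretches of its transcript also occur in transcripts of Gm10175 and Gm10231. Atp5k, the e subunit that helps ATP synthase form dimers, had 2.02 ± 0.85 for the hybrid against 129 (adjusted p = 0.208).

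**Figure D3:**
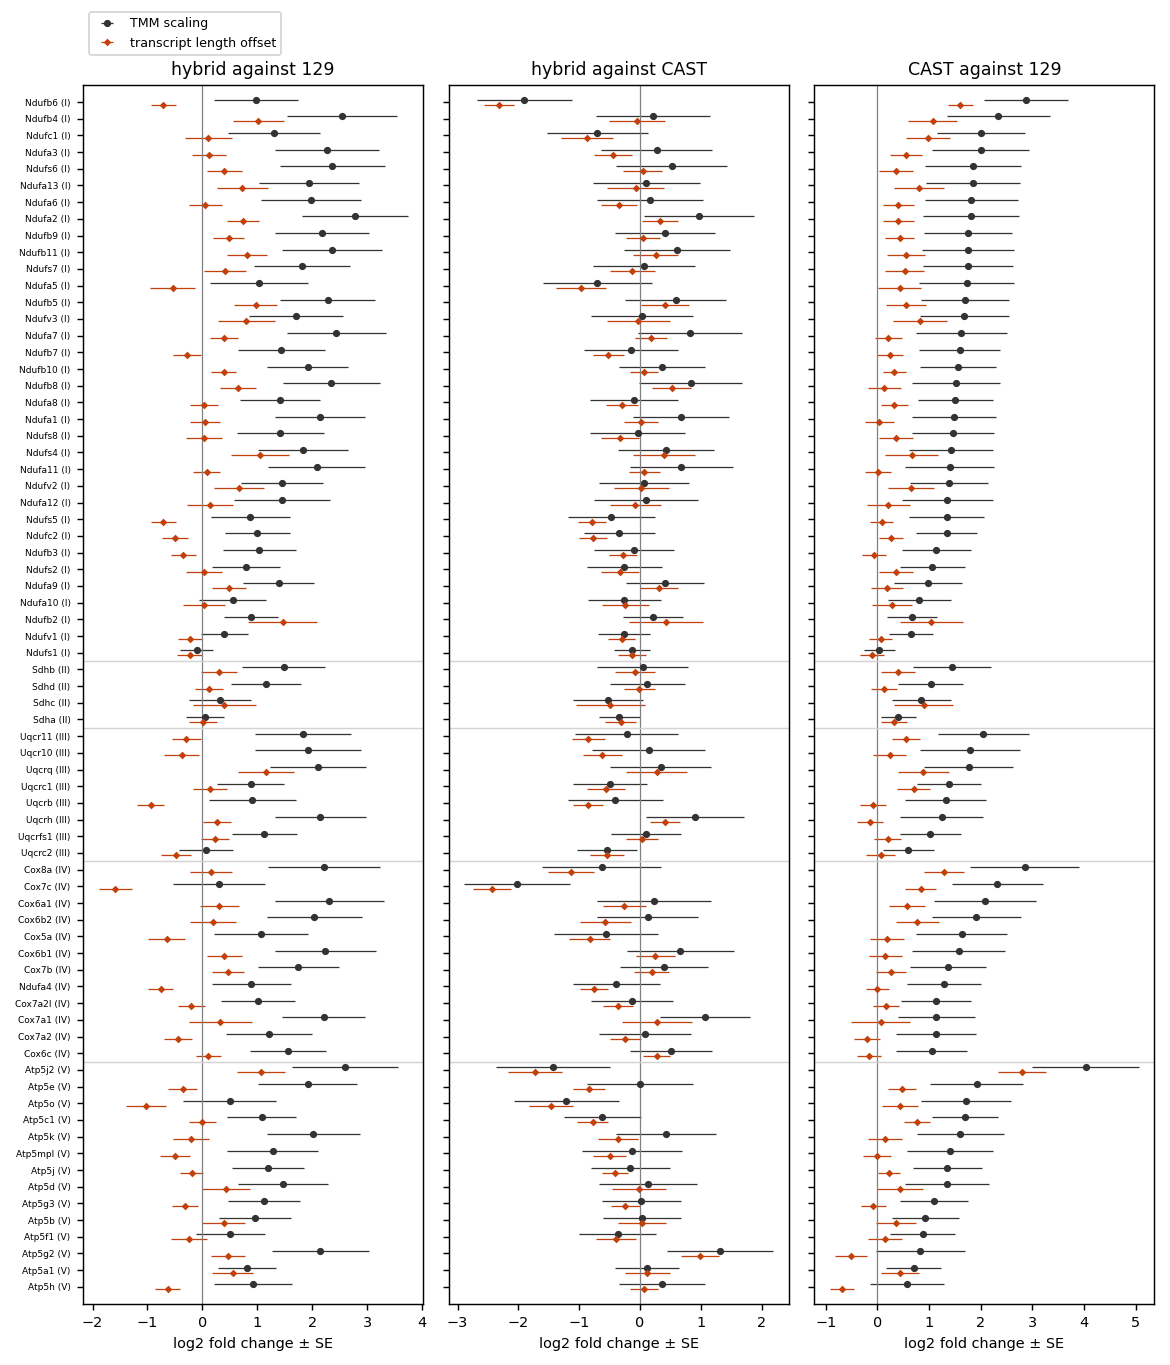
Log2 fold change ± SE (horizontal axis) of the 72 tested members (rows, complex in brackets) in the 3 comparisons, 3 libraries per line; black circles are from the TMM-scaled edgeR fit and orange diamonds from the fit with a transcript length offset. The black circles centre on 1.45, 0.06 and 1.44 and the diamonds on 0.11, -0.24 and 0.33.

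The members have short transcripts. Their principal transcripts have a median length of 786 bases (360 to 4371) against 2996 bases over the tested genes, and their coding sequences run from 159 to 2184 bases. Within the members, the difference from the 129 mean fell with length in the libraries that stood apart. The slope per doubling of transcript length was -0.71 in hybrid 2 (r = -0.61 across 72 genes), -0.53 in CAST 1 (r = -0.56) and -0.26 in hybrid 3 (r = -0.40), and lay between -0.12 and 0.08 for hybrid 1, CAST 2, CAST 3 and the 129 libraries. Genes of a library are not independent replicates, and they share that library's depth and preparation.

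Split by length, the 24 shortest members (371 to 659 bases) had a median of 3.10 log2 units above the 129 mean in hybrid 2 and the 24 longest (1142 to 4371 bases) 1.67. In CAST 1 the medians were 2.92 and 1.99, and in hybrid 3 they were 1.23 and 0.77. The 24 longest members were above 129 in hybrid 2 and CAST 1. Their range begins at 1142 bases, below the median of 2996 bases over the tested genes. Whether their values differ from the length trend over all genes was not tested. Over all tested genes the slope per doubling of transcript length was -1.12 in hybrid 2, -1.0 in CAST 1, -0.68 in hybrid 3 and -0.30 in hybrid 1, and lay between -0.17 and 0.03 for CAST 2, CAST 3 and the 129 libraries.

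**Figure D4:**
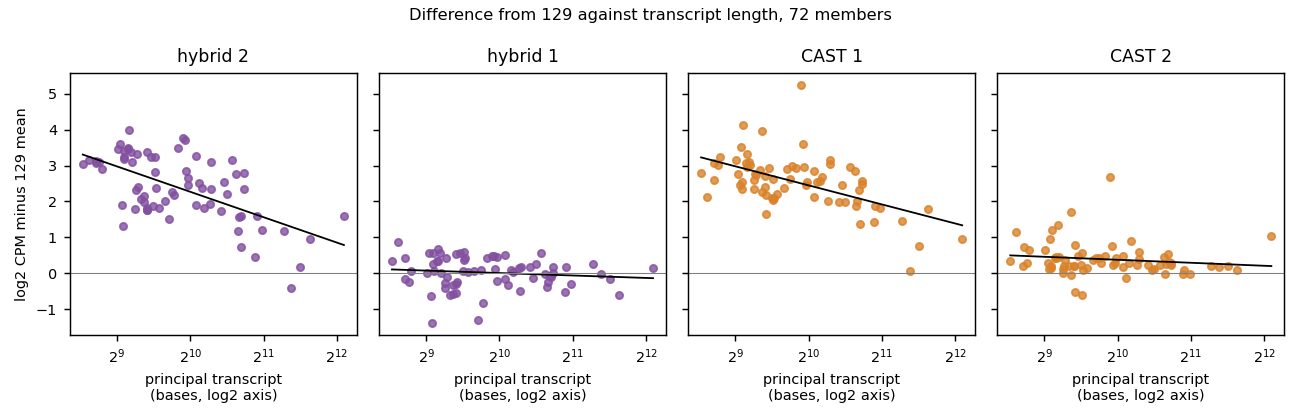
Log2 CPM minus the 129 mean (vertical axis) against the length of the principal transcript in bases (log2 axis) for the 72 tested members in 4 libraries; the black line is a least-squares fit. The fit falls by 0.71 per doubling of length in hybrid 2 and by 0.53 in CAST 1, and is nearly flat in hybrid 1 and CAST 2.

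With an offset that removes the trend on exon length in each library, the median log2 fold change of the members was 0.40 for the hybrid against 129, -0.21 for the hybrid against CAST and 0.57 for CAST against 129. That fit called 0 members for the hybrid against 129 (7.53% of all genes), Cox7c, Ndufb6 and Ndufc2 for the hybrid against CAST (6.72%), Ndufb6 for CAST against 129 (1.87%), and Cox7c and Ndufb6 for any difference among the lines (9.52%). With the length of the principal transcript in its place, an alternative chosen after seeing the data, the medians were 0.11, -0.24 and 0.33, and 46, 25 and 61 of 72 members lay above 0. It called Cox7c for the hybrid against 129 (8.11% of all genes), Atp5j2, Atp5o, Cox7c and Ndufb6 for the hybrid against CAST (7.51%), Atp5j2 and Ndufb6 for CAST against 129 (2.11%), and Atp5j2, Cox7c and Ndufb6 for any difference (10.4%). The part of RNA quality or library preparation in the length trend was not tested.

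A shift common to all members would leave the ratios between members of a library as they are. Each member was also set against the median of the 72 members in its own library, a scale chosen after seeing the data and given as a description. The shift was not fully common, as it fell with transcript length in hybrid 2, CAST 1 and hybrid 3, and this scale keeps that trend. In hybrid 1, 2 and 3, Ndufs1 stood at 0.95, -1.84 and 0.08 and Sdha at 1.48, -0.59 and 0.83. On this scale 40 of 72 members differed by less than 0.5 log2 units between the means of the hybrid and 129, 49 between the hybrid and CAST and 59 between CAST and 129. Differences above 1 log2 unit were found in 5, 5 and 3 members. For the hybrid against 129 these were Atp5o, Cox7c, Ndufs1, Sdha and Uqcrc2, all lower in the hybrid. The members described next were singled out after their values were seen, and all but Atp5o and Atp5g2 have their coding sequences printed.

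**Figure D5:**
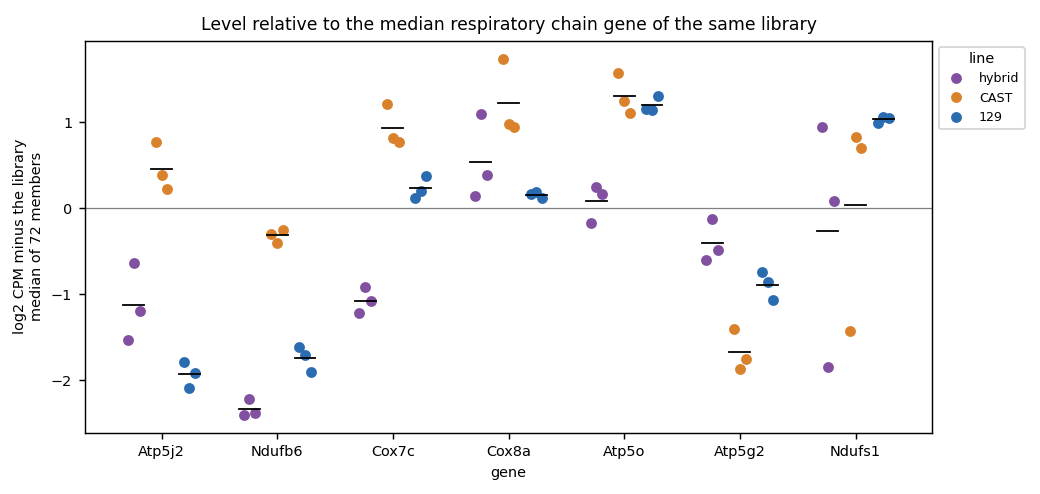
Log2 CPM minus the median of the 72 members in the same library (vertical axis) for 7 genes, with a point per library (3 per line) and a bar at each line's mean. Atp5j2, Ndufb6 and Cox7c form 3 separate groups of points by line, whereas the points of Ndufs1 spread within the hybrid and CAST.

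Atp5j2 encodes subunit f of the membrane part of ATP synthase (ENSMUSG00000038690, GRCm38 chr5:145183698-145192062, minus strand). It was at 22.4, 217 and 55.1 CPM in the hybrid, 608, 103 and 81.7 CPM in CAST and 17.5, 13.9 and 17.1 CPM in 129. Relative to the member median of its library it stood at -1.53, -0.64 and -1.19 in the hybrid, 0.77, 0.39 and 0.22 in CAST and -1.79, -2.09 and -1.91 in 129. The 3 lines did not overlap on that scale, with CAST highest and 129 lowest.

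On the TMM scale Atp5j2 had the largest fold change of any member, a log2 value of 4.03 ± 1.03 for CAST against 129, which did not pass in edgeR (adjusted p = 0.119) and did in DESeq2 (adjusted p = 0.000447). It passed in edgeR without hybrid 2 and CAST 1 (2.48, adjusted p = 0.0322) and with the transcript length offset (2.80, adjusted p = 0.0162; -1.73 and adjusted p = 0.0453 for the hybrid against CAST), and not with every library scaled to the member median, where its adjusted p of 0.141 was the lowest of the members. Few of its 50-base stretches, 3.8%, occur in transcripts of another gene, Gm6581.

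Ndufb6 encodes an accessory subunit of the membrane arm of complex I (ENSMUSG00000071014, GRCm38 chr4:40270591-40279421, minus strand). It was at 12.2, 72.9 and 24.1 CPM in the hybrid, 289, 59.7 and 58.9 CPM in CAST and 19.9, 18.2 and 17.1 CPM in 129. Relative to the member median it stood at -2.40, -2.22 and -2.38 in the hybrid, -0.30, -0.40 and -0.25 in CAST and -1.61, -1.70 and -1.90 in 129. CAST was highest in every library and the hybrid lay below both other lines.

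The log2 fold change of Ndufb6 was -1.90 ± 0.78 for the hybrid against CAST and 2.88 ± 0.81 for CAST against 129 (edgeR adjusted p = 0.266 and 0.149). Without hybrid 2 and CAST 1 the hybrid differed from CAST by -1.67 (adjusted p = 0.0354) and CAST from 129 by 1.66 (adjusted p = 0.0547). With the transcript length offset the values were -2.32 and 1.60 (adjusted p = 0.000406 and 0.00921). The gene overlaps Smim27 on the opposite strand over 39.0% of its exon bases, and without a stated strand setting the reads of the pair cannot be told apart.

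Cox7c encodes a small subunit of cytochrome c oxidase (ENSMUSG00000017778, GRCm38 chr13:86044816-86046904, minus strand). It was at 27.6, 180 and 59.7 CPM in the hybrid, 823, 139 and 119 CPM in CAST and 65.7, 67.7 and 82.7 CPM in 129. Relative to the member median it stood at -1.22, -0.92 and -1.08 in the hybrid, 1.21, 0.82 and 0.77 in CAST and 0.12, 0.20 and 0.37 in 129. As with Ndufb6, the hybrid lay below both parental lines in every library and CAST above both others.

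The log2 fold change of Cox7c was -2.02 ± 0.87 for the hybrid against CAST (edgeR adjusted p = 0.296), 2.32 ± 0.88 for CAST against 129 (adjusted p = 0.270) and 0.30 ± 0.84 for the hybrid against 129 (adjusted p = 0.833). The last of these turned to -1.59 (adjusted p = 0.0120) with the transcript length offset, which also gave -2.43 for the hybrid against CAST (adjusted p = 0.00127). Of its 50-base stretches 53.0% occur in transcripts of other genes, among them Gm10012, Gm12338 and Gm20091.

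Cox8a encodes another small, widely expressed subunit of the same enzyme (ENSMUSG00000035885, GRCm38 chr19:7215153-7217616, minus strand). It was at 71.2, 721 and 165 CPM in the hybrid, 1190, 156 and 135 CPM in CAST and 68.0, 67.3 and 69.5 CPM in 129. Every CAST and every hybrid library lay above the narrow range of 129. Relative to the member median it stood at 0.14, 1.09 and 0.39 in the hybrid, 1.74, 0.98 and 0.95 in CAST and 0.16, 0.19 and 0.12 in 129, where the hybrid overlapped both other lines. Its log2 fold change was 2.85 ± 1.05 for CAST against 129 (edgeR adjusted p = 0.256, DESeq2 adjusted p = 0.0428). None of its 50-base stretches occurs in transcripts of another gene.

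The coding sequences of these 4 genes, read 5′ to 3′ from the GENCODE principal transcripts and for Ndufb6 from base 88 to base 387, are shown to compare how much of each is unique. Capitals mark bases that lie in a 50-base stretch also found in a transcript of another gene on either strand. They cover 83 of 267 coding bases in Atp5j2, 69 of 387 in Ndufb6, 192 of 192 in Cox7c and 0 of 210 in Cox8a.
Atp5j2: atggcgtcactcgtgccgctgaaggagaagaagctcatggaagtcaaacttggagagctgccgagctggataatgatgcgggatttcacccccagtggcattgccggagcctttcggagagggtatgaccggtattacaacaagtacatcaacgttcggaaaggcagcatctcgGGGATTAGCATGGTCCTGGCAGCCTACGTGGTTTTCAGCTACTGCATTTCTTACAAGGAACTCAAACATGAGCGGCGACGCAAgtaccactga
Ndufb6: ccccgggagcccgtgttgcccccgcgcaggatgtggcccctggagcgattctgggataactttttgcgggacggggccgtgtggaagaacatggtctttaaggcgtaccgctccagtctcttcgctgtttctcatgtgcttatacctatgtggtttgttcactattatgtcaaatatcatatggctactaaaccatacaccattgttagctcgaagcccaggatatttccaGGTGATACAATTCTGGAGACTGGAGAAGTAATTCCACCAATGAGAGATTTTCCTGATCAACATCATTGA
Cox7c: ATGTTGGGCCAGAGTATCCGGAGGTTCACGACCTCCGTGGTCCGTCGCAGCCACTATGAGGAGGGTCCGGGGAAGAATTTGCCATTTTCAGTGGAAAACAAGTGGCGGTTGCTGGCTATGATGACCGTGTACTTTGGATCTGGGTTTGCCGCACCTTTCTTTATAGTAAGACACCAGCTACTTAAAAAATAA
Cox8a: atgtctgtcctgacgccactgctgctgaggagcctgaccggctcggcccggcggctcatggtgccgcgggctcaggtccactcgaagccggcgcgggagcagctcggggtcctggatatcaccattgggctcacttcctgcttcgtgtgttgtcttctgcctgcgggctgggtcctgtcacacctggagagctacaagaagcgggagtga

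Atp5o, the stalk subunit that links F1 to the membrane part, was at 57.2, 404 and 141 CPM in the hybrid, 1060, 187 and 151 CPM in CAST and 134, 130 and 159 CPM in 129. Relative to the member median it stood at -0.17, 0.25 and 0.16 in the hybrid, 1.57, 1.25 and 1.11 in CAST and 1.15, 1.14 and 1.31 in 129. On that scale CAST and 129 overlapped, and the hybrid lay below both. The log2 fold change was -1.21 ± 0.86 for the hybrid against CAST (edgeR adjusted p = 0.616; -1.46 and adjusted p = 0.0373 with the transcript length offset). Of its 50-base stretches 50.3% occur in transcripts of other genes, among them the second Atp5o gene ID.

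Counted over the 72 members on the relative scale, the hybrid lay below both parental lines without overlap in 10 (Atp5o, Cox5a, Cox7c, Ndufa4, Ndufa5, Ndufb6, Ndufb7, Ndufc1, Ndufs5 and Uqcrb), as did 2.59% of all genes, and above both in 10 (Atp5g2, Atp5k, Cox6b1, Ndufa1, Ndufa2, Ndufa7, Ndufb10, Ndufb5, Ndufb8 and Uqcrh), as did 4.41% of all genes. The scale is set by the members themselves, so these shares of all genes are not a like background. Among the 10 members below both, 6 share over 20% of their 50-base stretches with transcripts of other genes, with a median of 31.6% (0 to 53.0%). Among the 10 above both, 1 does (Atp5g2), with a median of 2.6% (0 to 87.4%). Over all 76 members the median is 0.75%, 35 share none and 14 share over 20%. The part of shared or dropped reads in the hybrid's levels was not tested.

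Other genes of the pathway were taken from lists. There were 8 tested subunits and cofactors outside the symbol rule (among them Cox4i1, Cyc1 and Ndufab1, while Atp5mpl is also a member). For the hybrid against 129, the hybrid against CAST and CAST against 129, 0 were called, against 7.02%, 6.0% and 0.917% of all genes. Their median log2 fold changes of 1.41, 0.09 and 1.34 were close to those of the members. The 17 tested assembly factors of complex I had 0.61, -0.31 and 0.98. Nubpl, which delivers iron-sulfur clusters to complex I, was the only one called, at 10.3, 40.2 and 13.2 CPM in the hybrid, 13.6, 8.48 and 5.09 CPM in CAST and 4.45, 4.45 and 4.14 CPM in 129 (2.28 ± 0.59 for the hybrid against 129, edgeR adjusted p = 0.0494, where 7.02% of all genes were called).

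Of the 33 tested assembly factors of complexes II to V, 3 were called higher and 1 lower in the hybrid against 129 (7.02% of all genes were called). Against CAST, 3 were called higher and 2 lower in the hybrid (6.0% of all genes), and 1 was called higher in CAST against 129 (0.917%). Cox16, an assembly factor of complex IV, was at 19.9, 38.6 and 15.4 CPM in the hybrid, 1.24, 0.561 and 0.932 CPM in CAST and 0.334, 0.671 and 0.575 CPM in 129 (5.52 ± 0.57 for the hybrid against 129, edgeR adjusted p = 0.000682). Sco2, which carries copper to complex IV, had 2.94 ± 0.42 in the same comparison (adjusted p = 0.00267). Lyrm7, which assists the Rieske protein of complex III, was at 3.11, 4.75 and 2.45 CPM in the hybrid, 18.1, 15.8 and 13.8 CPM in CAST and 2.89, 3.41 and 3.5 CPM in 129 (2.28 ± 0.38 for CAST against 129, adjusted p = 0.028). Sdhaf1, an assembly factor of complex II, had 0 counts in all hybrid libraries and 40.4, 10.9 and 9.46 CPM in CAST and 11.6, 8.66 and 9.42 CPM in 129. Pet117, a complex IV factor, had 0 counts in CAST and 129 and 1.98, 1.12 and 1.68 CPM in the hybrid. Whether the hybrid was counted against the same annotation as the other lines is not stated, and its part in these differences was not tested.

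Of the 16 nuclear regulators of mitochondrial genes tested, Tfb2m, a mitochondrial transcription factor, was called lower in the hybrid against 129 and against CAST (7.02% and 6.0% of all genes were called). It had 0 counts in all hybrid libraries, 2.99, 4.32 and 4.66 CPM in CAST and 13.3, 13.7 and 10.3 CPM in 129. The list's medians were -0.20, -0.01 and -0.30 for the 3 comparisons. Of the mitochondrially encoded subunits, 3 had rows. The complex I subunit mt-Nd5 had 0 counts in all hybrid libraries, 1530, 1320 and 1080 CPM in CAST and 75.1, 144 and 121 CPM in 129, whereas mt-Cytb, of complex III, had 1.77, 0.978 and 1.75 CPM in the hybrid and 0 counts in the other lines. The complex I subunit mt-Nd6 had 0 counts in all hybrid libraries, 2.99, 12.6 and 12.9 CPM in CAST and 0 counts in all 129 libraries, and was called lower in the hybrid against CAST and higher in CAST against 129 (edgeR adjusted p = 0.0131 and 0.0434). None of the 72 tested nuclear-encoded members had such an on or off pattern. Whether all lines were counted against the same annotation is not given in the sources used here.

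Lists of other housekeeping genes had medians both above and below those of the members. The 45 cytosolic ribosomal proteins (median transcript 860 bases) had 2.16, 0.59 and 1.56 for the hybrid against 129, the hybrid against CAST and CAST against 129, the 12 proteasome core subunits (1103.5 bases) 1.07, 0.10 and 1.0, and the 14 enzymes of the tricarboxylic acid cycle (2590 bases) 0.13, -0.15 and 0.24. Among the ribosomal proteins, Rps27 was called higher in CAST against 129 (0.917% of all genes were called) and lower in the hybrid against CAST (6.0%). These lists were not tested against the members.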

How the data were processed

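Polyadenylated RNA was sequenced in 9 libraries, 3 per line. STAR and mm10 are named as aligner and build, per the submitters' processing notes. No STAR version, counting tool, gene annotation or strand setting is stated there. The values in the deposited matrix are raw counts, whole numbers of reads per Ensembl gene, with no sign of scaling by the authors. CAST samples 7 and 8 belong to another matrix and were not analysed here.

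Symbols, coordinates, exon lengths and principal transcripts were joined by gene ID from GENCODE vM21 (GRCm38, the assembly also called mm10), which matched 27030 of 27071 IDs and need not be the annotation behind the counts. Genes were filtered with filterByExpr (minimum count 10, minimum total 15, proportion 0.7), which left 14839, then TMM scaling was applied, and edgeR 4.0.16 (R 4.3.3) gave robust quasi-likelihood tests from 1 fit of all 3 lines. P-values are two-sided and Benjamini-Hochberg adjusted over every tested gene (threshold 0.05); SE is the standard error of the log2 fold change. The procedure was tested on simulated data. DESeq2 1.42.0 and limma-voom (limma 3.58.1) were alternatives, beside other scaling, filtering, library and length settings. The length offset is a lowess curve (span 0.3) of each library's log2 deviation on log2 length. Sharing of 50-base stretches was counted between each member's principal transcript and all transcripts of other genes. Bounds at 3 counts cover counting error only.

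The members and lists were chosen with earlier results of these data known. The rule for named members took, in each complex, the 3 highest levels per kb of exon and, in each comparison, the 2 largest changes per direction at a mean of at least 5 CPM, the isoform list, untested members, the 3 largest changes per direction without overlap, and any member called. From other lists it took called genes, else the 2 of highest CPM. Scaling to the member median, the transcript length offset, and the members shown by relative level and sequence were chosen after seeing the data. Ndufa4 was counted with complex IV. A promoter motif search was planned and not run. Of the same-number pairs of libraries, 2 of 9 correlated above 0.1, so replicate numbers were not used as pairs. No libraries were duplicates (chi-square per degree of freedom at least 39.9 within a line).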

Additional observations from a re-analysis of the deposited data

How the results depend on the processing

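The edgeR counts of called members, 0 in each comparison, depended on the setting. DESeq2 called 10 for the hybrid against 129, 3 for CAST against 129 and 3 for any difference among the lines. The exon length offset gave 3 for the hybrid against CAST, 1 for CAST against 129 and 2 for any difference. The transcript length offset, added after seeing the data, gave 1 for the hybrid against 129, 4 for the hybrid against CAST, 2 for CAST against 129 and 3 for any difference. Without CAST 1 and hybrid 2 the counts were 1, 2, 1 and 2. Leaving out each library in turn gave 0 to 3 for the hybrid against 129 (3 without CAST 1: Ndufb10, Ndufb5 and Ndufb8), 0 for the hybrid against CAST and for CAST against 129, and 0 to 2 for any difference (2 without hybrid 2: Atp5j2 and Ndufb6). RLE size factors, limma-voom, no filter, only the lines compared and scaling to the member median also called 0. The joint test was not run with limma-voom or with only the lines compared.

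The median member log2 fold change was 0.11 with the transcript length offset for the hybrid against 129. Scaled to the member median, an alternative added after seeing the data, it was 0.00 for the hybrid against 129 and 0.01 for CAST against 129 by construction, and the median of all genes was then -0.82 and -0.61 (-0.18 for the hybrid against CAST). Over the 9 fits that leave out a library it ran from 0.59 to 1.79 for the hybrid against 129, -0.75 to 1.20 for the hybrid against CAST and 0.18 to 1.82 for CAST against 129. With the replicate number as a block the medians were 1.38, 0.19 and 1.25 and 0 members were called.

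Counts over all genes also moved, from 1041 for the hybrid against 129, 891 for the hybrid against CAST, 136 for CAST against 129 and 1192 for any difference. They were 2100, 1597, 939 and 2506 with DESeq2, 561, 526, 6 and 651 with the replicate block, and 340, 460, 34 and 585 scaled to the member median. For CAST against 129 they were 263 with limma-voom, 277 and 313 with the exon and transcript length offsets and 230 without CAST 1 and hybrid 2. Leaving out each library in turn gave 522 to 1717 for the hybrid against 129 (1717 without CAST 1; 673, 522 and 564 without 129 1, 2 and 3), 26 to 157 for CAST against 129 (31 and 61 without CAST 2 and 3; 51, 26 and 32 without 129 1, 2 and 3) and 788 to 1485 for any difference (788 without 129 2).

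Of 2109 fold changes of named members under 19 alternatives, 1 called value had the opposite sign to its main value (Cox7c for the hybrid against 129, -1.59 with the transcript length offset), 24 others newly passed the threshold, and 198 changed sign without passing it, 98 of 703 in the hybrid against CAST. The causes were not tested. Low counts limit the 4 untested members.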
